A study of Mus musculus with 12 samples.

Results

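Of 34 genes for lysosomal enzymes, lysosomal membrane proteins and regulators of the lysosome, 4 had a lower level in MLO-Y4 cells held at 2-g than in cells held at 1-g inside the same magnet, and 4 had a higher level at μ-g than at 2-g. Over all genes measured, 2.45% were called in the first comparison and 3.08% in the second, and leaving out 1 of several single arrays reduced either number from 4 to 1. Calls over all genes changed too. They were 489 and 615 with all arrays, and ran from 200 to 525 and from 227 to 779 when 1 array was left out. The glycosidase gene Gla, the glycosidase gene Gusb and the membrane protein gene Cd68 were in both groups of 4. The glycosidase gene Neu1 was lower at 2-g than at 1-g, and the protease gene Ctsd was higher at μ-g than at 2-g. The 34 genes come from a list of known lysosomal genes, written when earlier results of these data were known, and each was read from 1 transcript cluster, the set of probes for 1 gene, that carried that gene symbol alone. All 34 were measured, of 19938 genes with a symbol on the array.

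The lysosome is the acidic compartment in which cells break down proteins, sugars and lipids that arrive from outside the cell or from the cell itself by autophagy. Its enzymes are made in the endoplasmic reticulum, tagged with mannose 6-phosphate in the Golgi and sorted to the lysosome, where the low pH kept by a vacuolar proton pump makes them active. Many lysosomal genes carry a short promoter element that is bound by the transcription factor TFEB and its relatives, so that their RNA levels can move together. In bone, osteoclasts use acid and a secreted cathepsin to dissolve matrix, and osteocytes are known to express several of the same genes when they enlarge their lacunae.

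MLO-Y4 is an immortalized mouse cell line with osteocyte features, labelled as from long bone of an age of 14 days, and all 12 arrays come from this 1 line after 48 h of culture. The μ-g group was held at 12 T where the magnetic force offsets gravity, the 1-g group at 16 T in the centre of the bore where no net magnetic force acts, the 2-g group at 12 T where the force adds to gravity, and the control group outside the magnet under earth gravity. Each group has 3 arrays of total RNA that the labels call biological replicates. Whether these came from separate cultures is not given, so p-values measure only the spread between these arrays. In comparisons of 1-g with μ-g or 2-g, force and field strength cannot be told apart, whereas μ-g and 2-g share their field strength. In RNA of a whole culture, fewer cells of a type and less RNA per cell cannot be told apart.

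Values are log2 levels normalized over the 12 arrays, so a difference of 1 is a doubling. A gene was called changed when the p-value of the limma test, adjusted over all 19938 genes, was under 0.05. The 12 arrays had medians of 7.04 to 7.12, and replicate arrays of a group correlated at 0.9965 to 0.9982 over genes, against 0.9946 to 0.9985 for arrays of different groups. Arrays with the same replicate number in the labels deviated from their group means together, so a second limma model was fitted in which arrays of one number form a block. In the 6 comparisons, no call made without the block, among the 34 genes or the other lysosomal genes read beside them, was lost with it. Its results are given for calls of the 34 genes that it adds and for the numbers called among them, among the other lysosomal genes as a whole and in the proton pump, except in μ-g v.s. control, where 1 of the 3 pairs did not share deviations. The markers of the line were mixed. Of 10 osteocyte and osteoblast markers measured, Gja1, Pdpn, Cd44, Alpl and Col1a1 were above the median gene level of 7.50 and Dmp1, Mepe, Phex, Sost and Fgf23 were below it. Among the lysosomal genes 31 of 34 were above that median; Ctss, Ctse and Ctsw, with 5.73 to 6.16 on every array, were not.

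All 6 membrane protein genes had a lower mean at 2-g than at 1-g, and 1 of the 6 was called, where 2.45% of all genes were called. Cd68 encodes a heavily glycosylated protein of the late endosome and lysosome membrane that is widely used as a macrophage marker. Its transcript cluster is 10387536, and the gene lies on chromosome 11. Cd68 had log2 levels of 9.88, 9.56 and 9.90 at μ-g, 9.98, 9.90 and 9.79 at 1-g, 9.41, 9.14 and 9.16 at 2-g and 9.68, 9.44 and 9.80 in control. All 3 arrays at 2-g lay below all 9 other arrays. The log2 difference of 2-g v.s. 1-g was −0.66 (SE 0.11, n = 3 each), a fold of 1.57, with an adjusted p of 0.0077 in the limma test, and this call remained in all 12 fits that left out 1 array. The difference of μ-g v.s. 2-g was 0.55 (SE 0.11, adjusted p = 0.0185 by limma); without μ-g replicate 1, μ-g replicate 3, 2-g replicate 2 or 2-g replicate 3 it was not called, with an adjusted p of up to 0.0917. For 2-g v.s. control the difference was −0.40 (SE 0.11), not called at an adjusted p of 0.0664 by limma and called at 0.00855 with the replicate block.

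Since Cd68 is shared with macrophages and osteoclasts, lists of their markers were read beside it. Of 12 macrophage markers, Cd14 alone was above the median gene, no marker was called in any of the 6 comparisons by limma (at most 1 had an unadjusted p under 0.05 in each; with the block 1 was lower in 1-g v.s. control), and the mean over the list ran from 6.35 to 6.50 at μ-g, 6.31 to 6.46 at 1-g, 6.35 to 6.41 at 2-g and 6.35 to 6.45 in control. Of 9 osteoclast markers, 4 were above the median gene, and the mean over the list was 7.93 to 7.97 at μ-g, 7.88 to 7.92 at 1-g, 7.68 to 7.81 at 2-g and 7.83 to 7.92 in control. Its 2-g arrays lay below all others. Ctsk, the collagen-degrading cathepsin K of osteoclasts, had 12.78, 12.45 and 12.62 at μ-g, 12.74, 12.66 and 12.55 at 1-g, 12.22, 11.93 and 11.96 at 2-g and 12.63, 12.47 and 12.52 in control. Ctsk was lower at 2-g than at 1-g by a log2 difference of −0.61 (SE 0.09, adjusted p = 0.00397 by limma). It alone of the 9 was called in that comparison, where 2.45% of all genes were called. There 7 of the 9 had a lower mean and 2 a higher one, with a median log2 difference of −0.05. The matrix protease gene Mmp9 was higher at μ-g than at 2-g by 0.52 (SE 0.12, adjusted p = 0.0355 by limma). That call was kept in 8 of 12 fits that left out 1 array. Acp5, the acid phosphatase that defines osteoclasts, was at 6.65 to 6.89 on the 12 arrays, below the median gene. The part of such cells in the Cd68 result was not tested.

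**Figure D1:**
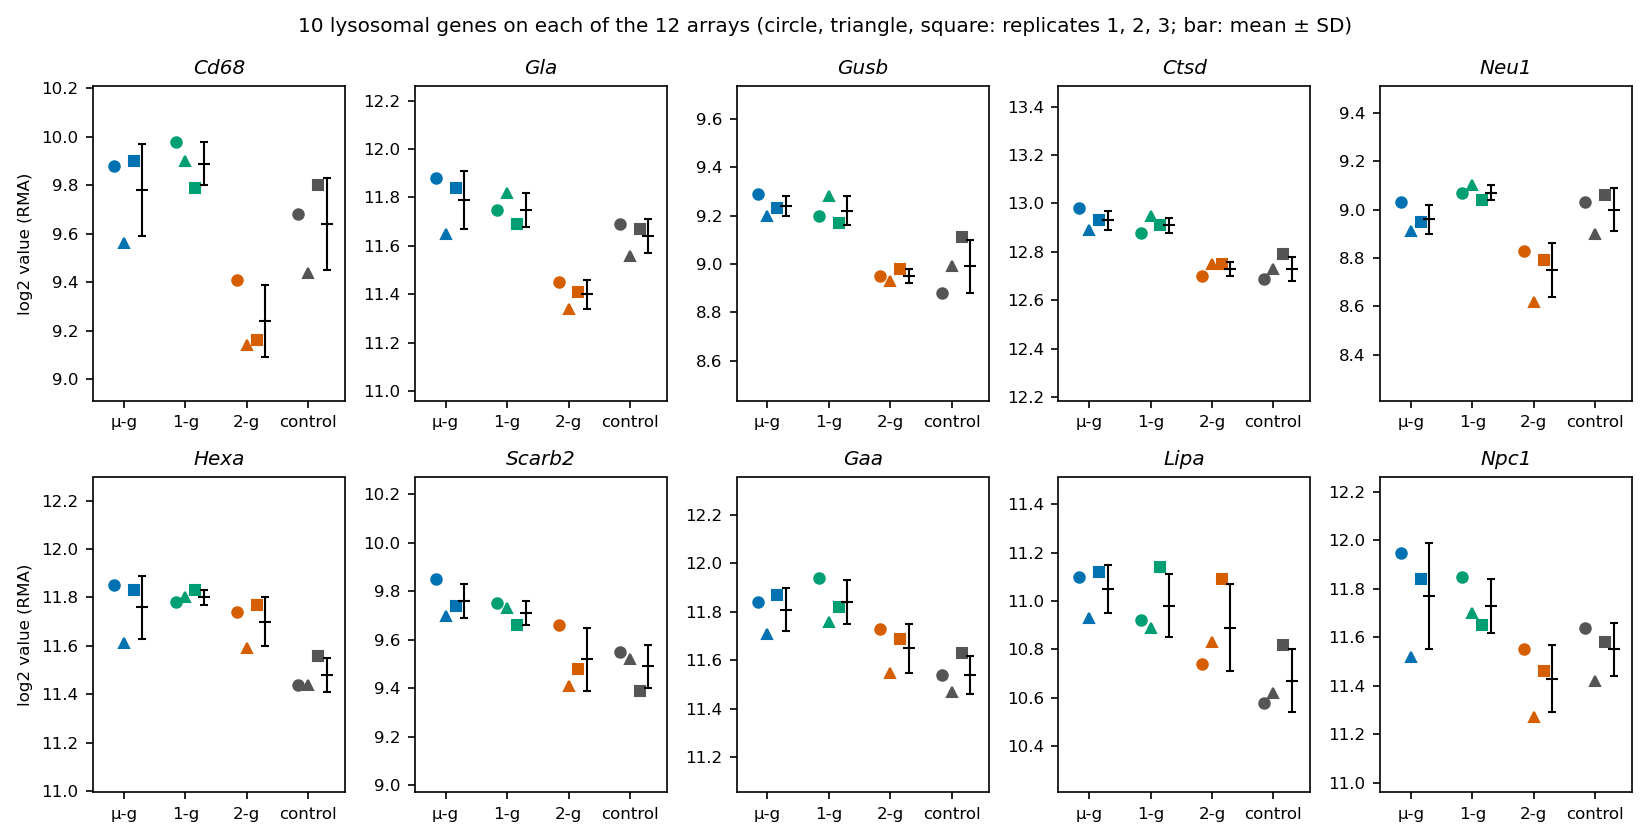
log2 level of the 10 lysosomal genes with the smallest F test p on each of the 12 arrays (vertical axis, all panels spanning the same range of log2 units; horizontal axis, the 4 groups), with circles, triangles and squares for replicates 1, 2 and 3 and a black bar for the group mean ± SD (n = 3). Cd68, Gla and Neu1 had their 3 lowest arrays at 2-g, while Hexa and Lipa had their lowest group mean in control.

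Among the other membrane protein genes, Scarb2 encodes the receptor that carries glucocerebrosidase to the lysosome. Scarb2 had 9.85, 9.70 and 9.74 at μ-g, 9.75, 9.73 and 9.66 at 1-g, 9.66, 9.41 and 9.48 at 2-g and 9.55, 9.52 and 9.39 in control. The μ-g arrays lay above all control and 2-g arrays, yet no comparison was called, the smallest adjusted p by limma being 0.0811 for μ-g v.s. 2-g (log2 difference 0.25, SE 0.07). With the block that comparison gave an adjusted p of 0.0126, and 2-g v.s. 1-g (log2 difference −0.20) one of 0.0421. Mcoln1, the calcium channel of the lysosome membrane, and Lamp1, an abundant membrane glycoprotein, had their lowest means at 2-g. Their group means covered 0.21 and 0.17 log2 units, and both were called with the block alone, Mcoln1 at 0.0171 and Lamp1 at 0.0387 for 2-g v.s. 1-g, and at 0.02 and 0.0455 for the comparison of μ-g with 2-g. Lamp2, which serves chaperone-mediated autophagy, and Cd63, a tetraspanin of late endosomes, had group means within 0.11 and 0.06 log2 units and were called in neither fit.

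Of the 8 glycosidase genes, 3 were lower at 2-g than at 1-g by the test and 2 were higher at μ-g than at 2-g. Of all genes, 1.10% and 1.48% were called in these directions. Gla encodes alpha-galactosidase A, the enzyme missing in Fabry disease, and is read by cluster 10606714. Gla had 11.88, 11.65 and 11.84 at μ-g, 11.75, 11.82 and 11.69 at 1-g, 11.45, 11.34 and 11.41 at 2-g and 11.69, 11.56 and 11.67 in control. Every 2-g array was below every array of the other groups. The log2 difference of μ-g v.s. 2-g was 0.39 (SE 0.07, n = 3 each, adjusted p = 0.00797 by limma) and was called in all 12 fits that left out 1 array. The difference of 2-g v.s. 1-g was −0.35 (SE 0.07, adjusted p = 0.0167 by limma), not called without 1-g replicate 1, 1-g replicate 2, 2-g replicate 2 or 2-g replicate 3, with an adjusted p of up to 0.0728. Against control, 2-g was lower by a log2 difference of −0.24, with an adjusted p of 0.0755 by limma and 0.0254 with the block.

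Gusb encodes beta-glucuronidase, which cleaves glycosaminoglycans, and is read by cluster 10534102. Gusb had 9.29, 9.20 and 9.23 at μ-g, 9.20, 9.28 and 9.17 at 1-g, 8.95, 8.93 and 8.98 at 2-g and 8.88, 8.99 and 9.11 in control. Unlike for Cd68 and Gla, the 2-g arrays overlapped the control arrays, and both lay below all μ-g and 1-g arrays. The log2 difference was 0.29 for μ-g v.s. 2-g (SE 0.06, adjusted p = 0.0226 by limma) and −0.26 for 2-g v.s. 1-g (SE 0.06, adjusted p = 0.0371 by limma). The call of μ-g v.s. 2-g was absent without μ-g replicate 1, μ-g replicate 3 or any of the 3 arrays at 2-g (adjusted p up to 0.108), and that of 2-g v.s. 1-g without μ-g replicate 3 or any of the arrays at 1-g and 2-g (adjusted p up to 0.135). For μ-g v.s. control Gusb differed by 0.25 and was not called (adjusted p = 0.0763 by limma).

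Neu1 encodes the lysosomal sialidase, which removes sialic acid and is held in a complex with the products of Ctsa and Glb1. It is read by cluster 10444578 and lies on chromosome 17. Neu1 had 9.03, 8.91 and 8.95 at μ-g, 9.07, 9.10 and 9.04 at 1-g, 8.83, 8.62 and 8.79 at 2-g and 9.03, 8.90 and 9.06 in control. The 2-g arrays were the lowest 3 of the 12, and the 1-g arrays lay above those at μ-g without overlap. The log2 difference of 2-g v.s. 1-g was −0.32 (SE 0.06, adjusted p = 0.0209 by limma), lost without 1-g replicate 1, 1-g replicate 2, 2-g replicate 2 or 2-g replicate 3 (adjusted p up to 0.0824). For 2-g v.s. control it was −0.25 (adjusted p = 0.0584 by limma, 0.0134 with the block), and for μ-g v.s. 2-g it was 0.21 (0.0993 by limma, 0.0277 with the block). Glb1 and Ctsa, whose products bind the sialidase, had group means within 0.09 and 0.10 log2 units and were not called in any comparison.

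Hexa and Gaa had another order of groups, with the lowest mean in control. Hexa, which encodes the alpha subunit of beta-hexosaminidase, had 11.85, 11.61 and 11.83 at μ-g, 11.78, 11.80 and 11.83 at 1-g, 11.74, 11.59 and 11.77 at 2-g and 11.44, 11.44 and 11.56 in control. All 9 arrays from the magnet were above the 3 control arrays. The log2 difference from control was 0.29 at μ-g, 0.32 at 1-g and 0.22 at 2-g (SE 0.07 each), with adjusted p of 0.0808, 0.0843 and 0.117 by limma, none called. With the block, the adjusted p was 0.0114 for 1-g v.s. control and 0.025 for 2-g v.s. control. Gaa, the glycogen-degrading acid alpha-glucosidase, had 11.84, 11.71 and 11.87 at μ-g, 11.94, 11.76 and 11.82 at 1-g, 11.73, 11.55 and 11.69 at 2-g and 11.54, 11.47 and 11.63 in control. Its μ-g and 1-g arrays were above all control arrays and its 2-g arrays overlapped them; the difference of 1-g v.s. control was 0.30 (SE 0.07), with an adjusted p of 0.106 by limma and 0.0103 with the block. That of 2-g v.s. 1-g was −0.19, with 0.214 by limma and 0.038 with the block. The alpha-mannosidase gene Man2b1 spanned 0.14 log2 units with no call. Naglu, which acts on heparan sulfate, spanned 0.16, had its highest mean at 2-g, and was lower at μ-g than at 2-g with the block alone (log2 difference −0.16, adjusted p = 0.0492).

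None of the 10 cysteine protease genes was called in any comparison, and their group means had no common order. At an unadjusted p under 0.05 by limma, 1 was higher and 1 lower in μ-g v.s. 2-g. The same numbers held for 2-g against 1-g. Of all genes, 17.1% passed in the first comparison and 15.2% in the second, in either direction. In 2-g v.s. 1-g, 5 of the 10 were higher and 5 lower, with a median log2 difference of −0.01. The broadly acting cathepsins Ctsb and Ctsl had group means within 0.08 and 0.12 log2 units, the asparaginyl endopeptidase gene Lgmn within 0.12 and the exopeptidase gene Ctsc within 0.15. Ctsz, a carboxypeptidase, was lowest at 2-g and spanned 0.22 log2 units, with an adjusted p for μ-g v.s. 2-g of 0.131 by limma and 0.0242 with the block. Ctso and Ctsf, less studied papain-type cathepsins, had their highest means at 2-g and spanned 0.22 and 0.17 log2 units with no call in either fit. Ctss, characteristic of antigen-presenting cells, and Ctsw, characteristic of cytotoxic lymphocytes, spanned 0.06 and 0.10 log2 units at the low levels given above.

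Ctsh, an aminopeptidase, is singled out here after its values were seen. Ctsh had 8.78, 9.31 and 9.09 at μ-g, 8.72, 9.48 and 9.21 at 1-g, 9.11, 10.01 and 9.52 at 2-g and 8.98, 9.62 and 9.22 in control. In each group replicate 1 was the lowest and replicate 2 the highest, and within each replicate number the 2-g array was the highest of the 4. The log2 difference was −0.49 for μ-g v.s. 2-g and 0.41 for 2-g v.s. 1-g (SE 0.24 each), with adjusted p of 0.319 and 0.465 by limma. Over the 12 fits that left out 1 array they ran from −0.708 to −0.258 and from 0.179 to 0.63, and that of 2-g v.s. control, 0.27, from 0.041 to 0.492. With the replicate block the adjusted p was 8.16e-04 for μ-g v.s. 2-g, 0.00298 for 2-g v.s. 1-g and 0.024 for 2-g v.s. control. Ctsh, higher at 2-g, thus ran against the direction of Cd68, Gla, Gusb and Neu1.

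Among the other proteases Ctsd was called. Ctsd encodes cathepsin D, the main aspartic protease of lysosomes, and is read by cluster 10569319. Ctsd had 12.98, 12.89 and 12.93 at μ-g, 12.88, 12.95 and 12.91 at 1-g, 12.70, 12.75 and 12.75 at 2-g and 12.69, 12.73 and 12.79 in control. The μ-g and 1-g arrays all lay above the 2-g and control arrays, whose means were equal at 12.73. The log2 difference of μ-g v.s. 2-g was 0.20 (SE 0.05, adjusted p = 0.0425 by limma), and it was called in 4 of 12 fits that left out 1 array; the calls were lost without μ-g replicate 1 or 3, 1-g replicate 1 or 3, any array at 2-g or control replicate 2, with an adjusted p of up to 0.179. The difference of the same size between μ-g and control, 0.20, had an adjusted p of 0.0761 by limma. For 2-g v.s. 1-g the difference was −0.18, with an adjusted p of 0.0767 by limma and 0.0393 with the block. Ctse, a cathepsin of gastric and immune cells, had group means within 0.05 log2 units, at a low level.

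Of the 5 genes for lipid enzymes, their activators and sterol transport, none was called, although all 5 had lower means at 2-g than at 1-g and higher means at μ-g than in control. At an unadjusted p under 0.05 by limma, 2 of the 5 were lower in 2-g v.s. 1-g and 2 were higher in μ-g v.s. control. Of all genes, 15.2% and 14% passed in either direction. Npc1, the membrane protein that exports cholesterol from the lysosome, had 11.95, 11.52 and 11.84 at μ-g, 11.85, 11.70 and 11.65 at 1-g, 11.55, 11.27 and 11.46 at 2-g and 11.64, 11.42 and 11.58 in control. In μ-g, 2-g and control, replicate 2 was the lowest, and the 2-g arrays overlapped those at μ-g and in control. The log2 difference was 0.34 for μ-g v.s. 2-g (SE 0.11, adjusted p = 0.105 by limma, 0.0044 with the block) and −0.31 for 2-g v.s. 1-g (SE 0.11, adjusted p = 0.172 by limma, 0.01 with the block). Lipa, the acid lipase for cholesteryl esters, had 11.10, 10.93 and 11.12 at μ-g, 10.92, 10.89 and 11.14 at 1-g, 10.74, 10.83 and 11.09 at 2-g and 10.58, 10.62 and 10.82 in control. Control had the lowest mean, and the μ-g and 1-g arrays lay above all control arrays. The difference of μ-g v.s. control was 0.38 (SE 0.10, adjusted p = 0.0885 by limma), and that of 1-g v.s. control was 0.31 (SE 0.10, adjusted p = 0.241 by limma, 0.0177 with the block). That of 2-g v.s. control was 0.21 (adjusted p = 0.298 by limma, 0.0364 with the block). The acid ceramidase gene Asah1 spanned 0.18 log2 units, and Psap, the precursor of the saposins, and Npc2, the soluble cholesterol carrier, spanned 0.09 each, without a call in either fit.

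The regulator Tfeb had group means of 8.43 at μ-g, 8.44 at 1-g, 8.44 at 2-g and 8.45 in control, a span of 0.02 log2 units, and its single arrays ran from 8.34 to 8.57. Its RNA level thus showed no difference larger than the spread between replicates, and RNA says nothing about where the protein is in the cell. Grn, which encodes progranulin, a secreted and lysosomal glycoprotein, had its lowest mean at 2-g and spanned 0.14 log2 units with no call.

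In the F test over the 4 groups, 5 of the 34 genes were called (Cd68, Gla, Gusb, Ctsd and Neu1, adjusted p 0.0186 to 0.0491 by limma), against 3.58% of all genes. Leaving out 2-g replicate 2 or 2-g replicate 3 removed all 5 calls. The number was 2 without μ-g replicate 1 or μ-g replicate 3, and 3 without 2-g replicate 1, control replicate 1, control replicate 3 or any of the arrays at 1-g. It was 4 without control replicate 2. Omitting μ-g replicate 2 raised it to 8. Over all genes, the F test called 714 with all arrays and 231 to 943 when 1 array was left out. In 2-g v.s. 1-g, 4 of 34 genes were lower (11.8%) and none higher, where 2.45% of all genes were called, 1.10% as lower. Only Cd68 was called without 1-g replicate 1, 1-g replicate 2, 2-g replicate 2 or 2-g replicate 3. Over all genes, leaving out 1 array gave 200 to 525 calls in this comparison. With the block, 10 were lower and Ctsh higher, against 8.32% of all genes called. In μ-g v.s. 2-g, 4 of 34 were higher (11.8%) and none lower, where 3.08% of all genes were called, 1.48% as higher. Only Gla was called without μ-g replicate 1, μ-g replicate 3, 2-g replicate 2 or 2-g replicate 3, and 7 genes were called without μ-g replicate 2. Over all genes, leaving out 1 array gave 227 to 779 calls here. With the block, 10 were higher and Ctsh and Naglu lower, against 10% of all genes called. These comparisons share the 2-g arrays and are not independent of each other.

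**Figure D2:**
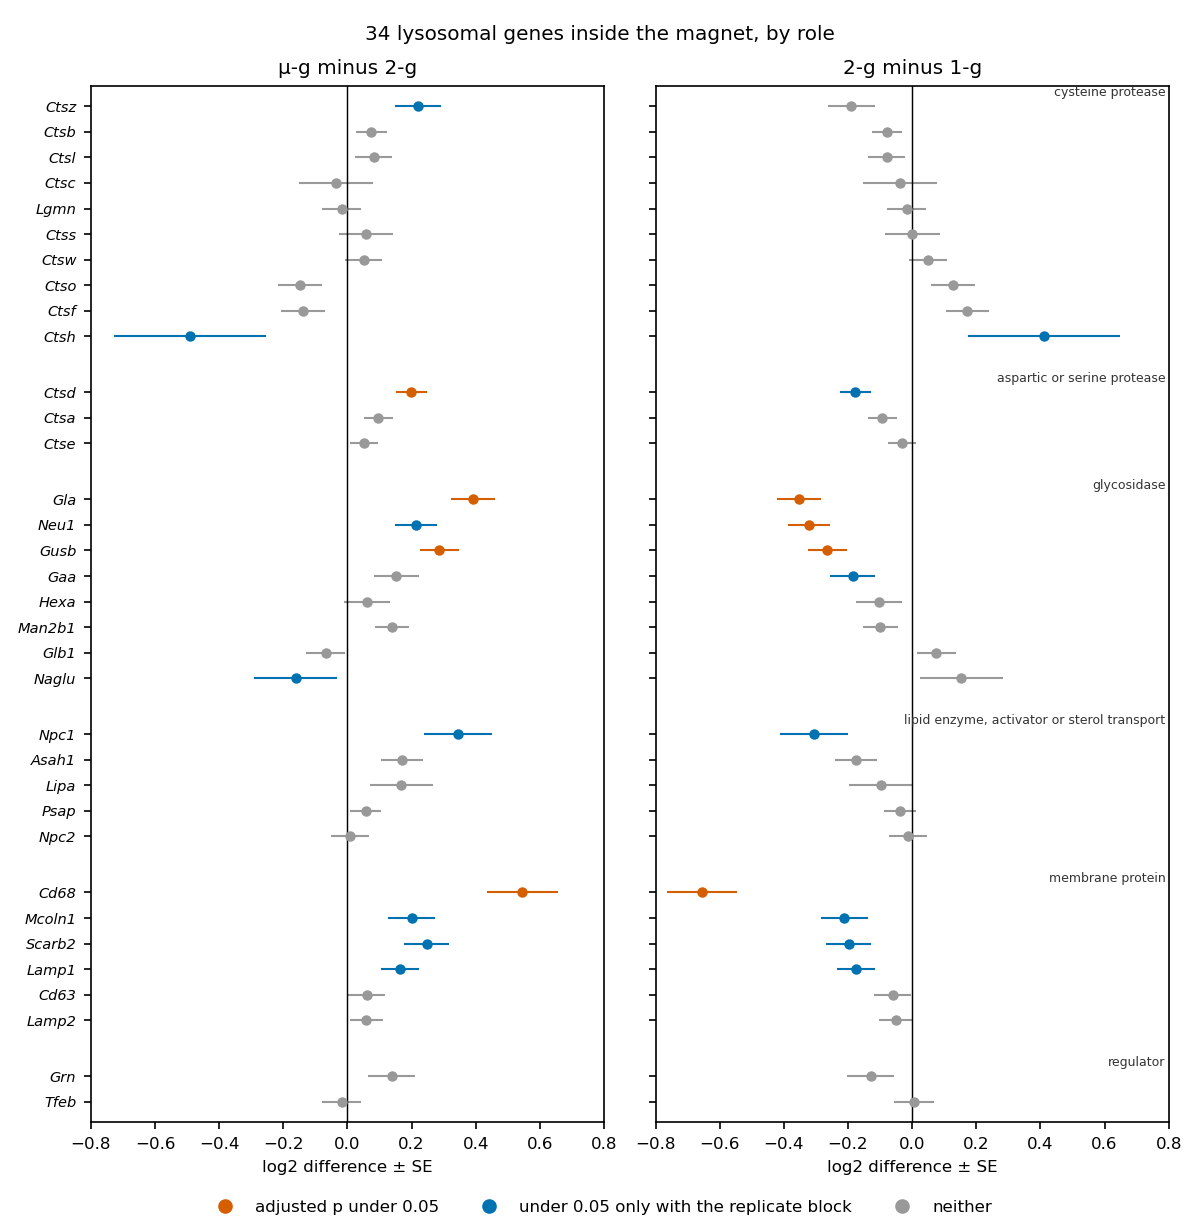
log2 difference ± SE (horizontal axis, fit without the block, n = 3 arrays per group) of all 34 lysosomal genes, grouped by role down the vertical axis, for μ-g minus 2-g and 2-g minus 1-g. Orange points passed an adjusted p of 0.05, blue points did so only in the fit with the replicate block, and Cd68 stood at 0.55 and −0.66 while Ctsh pointed the other way with the widest error.

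Read over all 34 genes, 26 had a lower mean at 2-g than at 1-g and 8 a higher one, with a median log2 difference of −0.09, against −0.02 over all genes. In μ-g v.s. 2-g the median was 0.08 for the 34 genes and 0.03 for all genes, with 26 higher and 8 lower. In 2-g v.s. 1-g, the arrays of the groups did not overlap for 15 lower genes of the 34 and for 1 higher gene, where 13.0% of all genes were lower and 6.42% higher without overlap. In μ-g v.s. 2-g, 14 were higher and 2 lower without overlap, where 14.2% of all genes were higher and 6.90% lower in this way. The 2-g group had the lowest of the 4 means in 15 of 34 genes (44.1%), against 36.4% of all genes. No gene of the 34 was called in μ-g v.s. 1-g, and neither was any other gene (0%), the number at an unadjusted p under 0.05 being 0 of 34 genes and 2.19% of all genes.

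None of the 34 genes was called against control by limma. Omitting μ-g replicate 2 gave 1 call in μ-g v.s. control, 1 in 1-g v.s. control and 2 in 2-g v.s. control. For the last, omitting control replicate 2 gave 2 and omitting 2-g replicate 1 gave 1. Over all genes, fits that left out 1 array called 2 to 500, 0 to 84 and 180 to 730 in these comparisons. In μ-g v.s. control 0.943% of all genes were called, in 1-g v.s. control 0.356% and in 2-g v.s. control 3.42%. At an unadjusted p under 0.05 by limma, 10 of the 34 were higher at μ-g than in control and none lower, 9 were higher at 1-g and none lower, and 3 were higher and 3 lower at 2-g, whereas 14%, 10.8% and 16.7% of all genes passed in either direction. The median log2 difference of the 34 genes from control was 0.09 at μ-g, 0.09 at 1-g and −0.01 at 2-g, and over all genes it was 0.02, 0.02 and 0.00. The arrays were higher than all control arrays without overlap for 11 of 34 genes at μ-g and 14 of 34 at 1-g, with 11.5% and 10.5% of all genes higher in this way. In these 2 comparisons none of the 34 was lower without overlap, against 5.70% and 4.42% of all genes. In 2-g v.s. control, 3 of 34 were higher and 4 lower without overlap, where 2030 and 2194 of all 19938 genes were. With the block, Hexa, Gaa and Lipa were higher at 1-g than in control, against 2.39% of all genes called. In 2-g v.s. control with the block, Hexa, Lipa and Ctsh were higher and Gla, Neu1 and Cd68 lower, against 10.3% of all genes. The 3 comparisons share the control arrays.

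**Figure D3:**
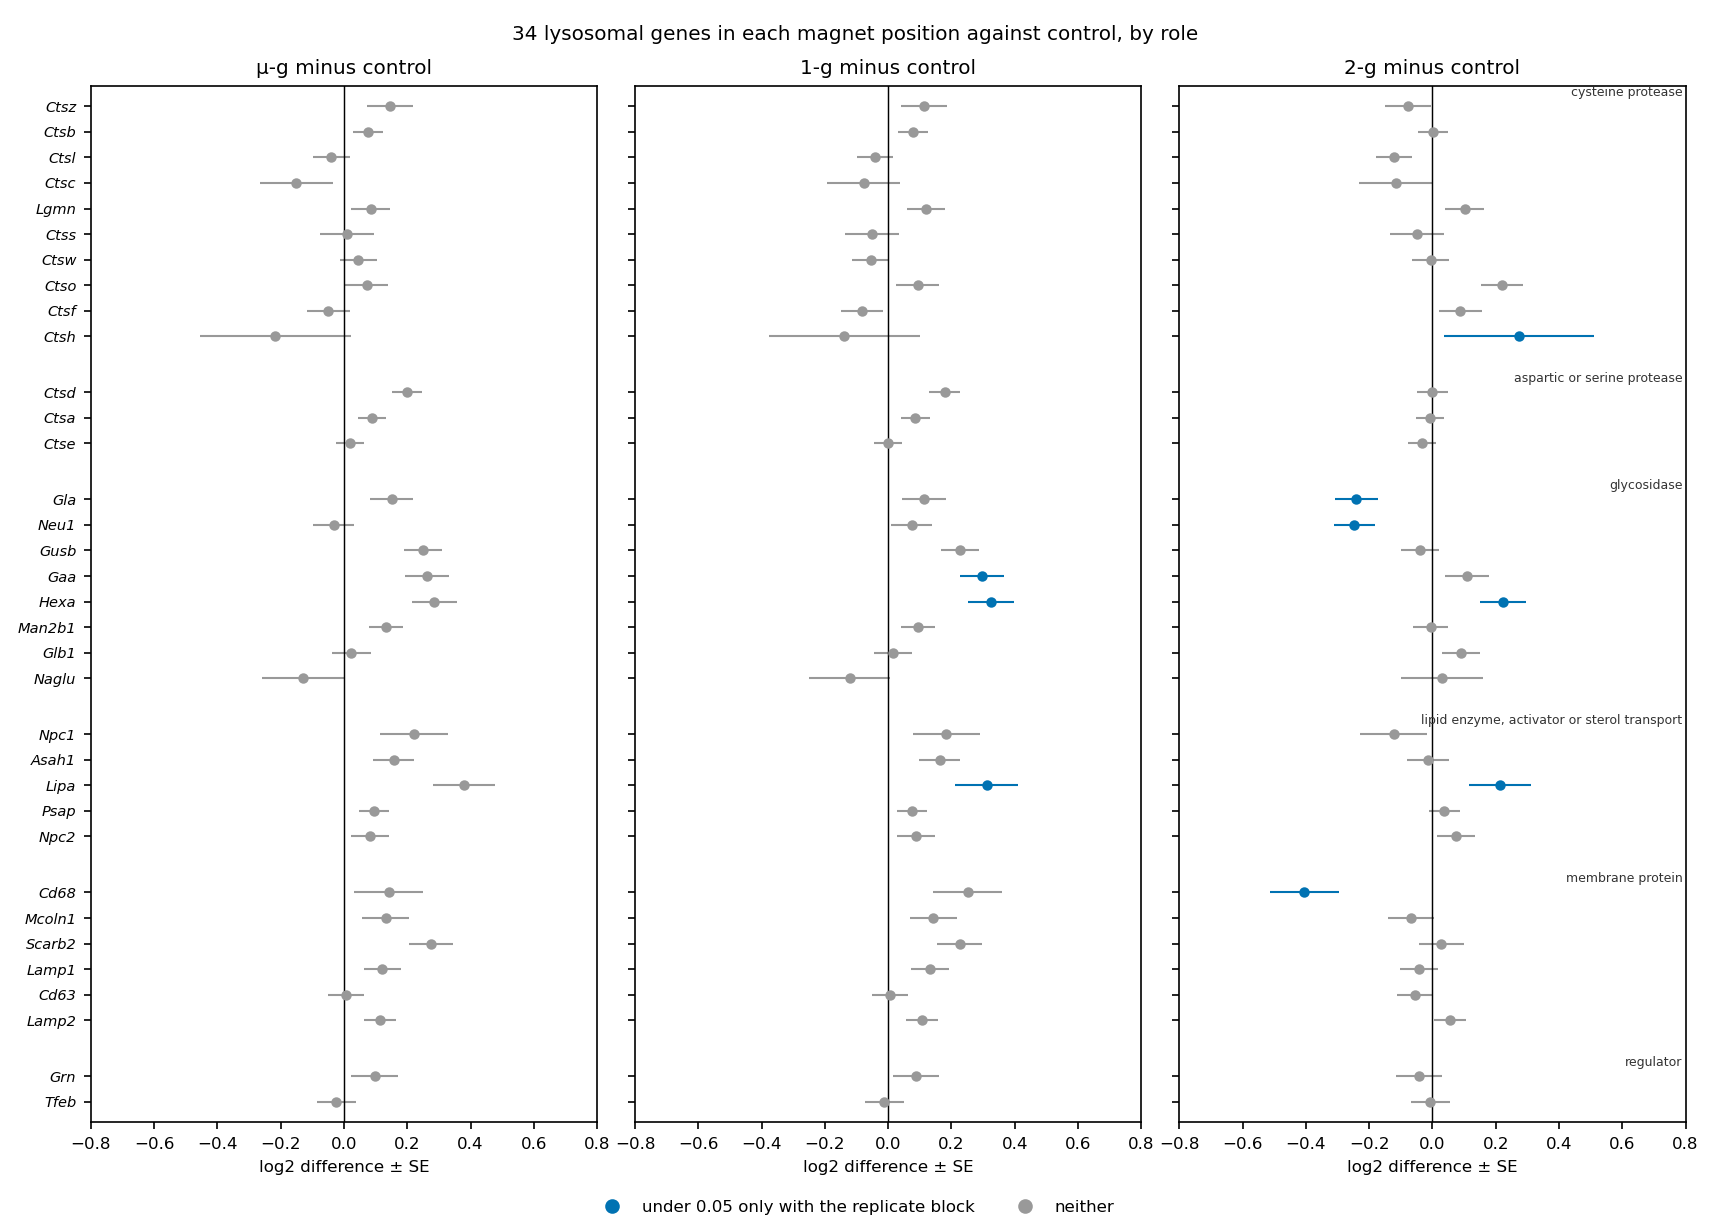
log2 difference from control ± SE (horizontal axis, fit without the block, n = 3 arrays per group) of the 34 lysosomal genes, grouped by role down the vertical axis, at μ-g, 1-g and 2-g. No gene passed an adjusted p of 0.05; blue points passed only with the replicate block, which is shown for 1-g and 2-g. Hexa was at 0.29, 0.32 and 0.22, and Cd68 was at −0.40 at 2-g.

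The promoters of Cd68, Gla and Ctsd are shown because these genes were called and differ in whether they hold the letters bound by TFEB. Promoter windows, taken from RefSeq on GRCm38.p6, run from 250 bases before to 50 after each start site and were found for 28 of the 34 genes, in 33 windows. The motif TCACGTGA, the core of the TFEB element, was present on either strand in 4 windows of the 34 genes, those of Ctsa, Ctsd, Gla and Mcoln1 (12.1% of 33), and in 0.974% of all 32851 windows. The shorter CACGTG, contained in it and bound by many factors, was in 33.3% of the members' windows and 7.15% of all. ACGTG, the core of the element bound by hypoxia-inducible factors and contained in both others, was in 42.4% and 19.6%. The 250 bases before the start site follow 5′ to 3′ on the gene's strand, with the letters of any of the 3 motifs in capitals; Cd68 lies at chr11:69666171-69666420 (minus strand), Gla at chrX:134601006-134601255 (minus strand) and Ctsd at chr7:142387828-142388077 (minus strand).
Cd68: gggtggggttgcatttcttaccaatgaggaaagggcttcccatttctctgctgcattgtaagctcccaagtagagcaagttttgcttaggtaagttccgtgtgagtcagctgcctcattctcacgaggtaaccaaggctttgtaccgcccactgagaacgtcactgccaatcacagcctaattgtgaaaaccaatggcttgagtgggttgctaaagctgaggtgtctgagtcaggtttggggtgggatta
Gla: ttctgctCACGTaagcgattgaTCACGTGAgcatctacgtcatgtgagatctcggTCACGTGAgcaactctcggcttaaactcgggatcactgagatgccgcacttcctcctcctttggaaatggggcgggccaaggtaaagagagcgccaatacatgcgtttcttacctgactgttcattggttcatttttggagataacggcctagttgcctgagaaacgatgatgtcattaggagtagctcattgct
Ctsd: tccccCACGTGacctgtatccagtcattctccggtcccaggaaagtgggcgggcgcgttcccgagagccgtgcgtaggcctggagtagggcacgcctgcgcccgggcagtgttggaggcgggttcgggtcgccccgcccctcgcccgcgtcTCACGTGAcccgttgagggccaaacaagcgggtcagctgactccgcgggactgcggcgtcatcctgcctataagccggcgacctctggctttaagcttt
The Gla sequence holds TCACGTGA at 2 places, the Ctsd sequence at 1 place beside a further CACGTG, and the Cd68 sequence holds none of the 3 motifs. Gusb, Hexa, Lipa and Scarb2 also held none of the 3 in their windows. A match describes letters, not a bound site.

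Other genes of the lysosome, 115 measured of 124 listed for their known function, were read beside the 34. At 2-g v.s. 1-g, 13 of the 115 were lower and none higher, with a median log2 difference of −0.10, where 1.10% of all genes were called lower. At μ-g v.s. 2-g, 18 were higher and none lower, with a median of 0.09, where 1.48% of all genes were called higher. Against control, 4 were higher at μ-g and 4 at 1-g with none lower, and at 2-g 1 was higher and 1 lower. These were 3.48%, 3.48% and 1.74% of the 115, against 0.943%, 0.356% and 3.42% of all genes called. With the block, 32 were lower and 1 higher in 2-g v.s. 1-g, and 32 were higher and 2 lower at μ-g than at 2-g, against the 8.32% and 10% of all genes given above. In the same fit 7 were higher and 11 lower in 2-g v.s. control, and 12 were higher in 1-g v.s. control. Over all genes 10.3% and 2.39% were called in these 2 comparisons with the block. Without the block, the number lower in 2-g v.s. 1-g was 2 without 1-g replicate 1, 4 without 1-g replicate 3, 2-g replicate 2 or 2-g replicate 3, 5 without 1-g replicate 2 and 8 without 2-g replicate 1, and the number higher in μ-g v.s. 2-g was 3 without μ-g replicate 1, 5 after omitting 2-g replicate 2 and 6 after omitting μ-g replicate 3 or 2-g replicate 3. Over all genes, leaving out 1 array gave 200 to 525 calls in the first comparison and 227 to 779 in the second, in either direction.

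The vacuolar proton pump, which acidifies the lysosome, had 6 of 16 measured genes higher at μ-g than at 2-g (median log2 difference 0.23) and 6 of 16 lower at 2-g than at 1-g (median −0.21), beside the 1.48% and 1.10% of all genes called in these directions. With the block these numbers were 9 and 10, against 10% and 8.32% of all genes called with the block in either direction. In 2-g v.s. control, 4 of 16 were lower with the block and 1 without it. Of all genes, 10.3% were called there with the block and 3.42% without it, in either direction. Atp6v1b2, a subunit of the catalytic head, had 12.10, 11.93 and 12.06 at μ-g, 12.03, 12.09 and 11.99 at 1-g, 11.76, 11.57 and 11.66 at 2-g and 11.98, 11.91 and 11.92 in control. Its 2-g arrays were the lowest 3, and the log2 difference was 0.37 for μ-g v.s. 2-g (SE 0.06, adjusted p = 0.00617 by limma) and −0.37 for 2-g v.s. 1-g (SE 0.06, adjusted p = 0.00661 by limma), each called in all 12 fits that left out 1 array. Atp6v1c1, the stalk subunit, differed by 0.42 and −0.39 in the same comparisons, and Atp6ap2, an accessory protein of the pump, by 0.30 and −0.27, all 4 called. The pump gene Atp6v0a2 differed by 0.25 and −0.20 (adjusted p = 0.0175 and 0.0498 by limma). Its first call was kept in 9 of 12 fits that left out 1 array and its second in 0. For μ-g v.s. 2-g, 1 gene of the pump was called after omitting μ-g replicate 1, 2 after omitting 2-g replicate 3 and 3 after omitting 2-g replicate 2. In 2-g v.s. 1-g, 1 was called without 1-g replicate 1, 1-g replicate 2 or 2-g replicate 3, 2 without 2-g replicate 2 and 3 without 1-g replicate 3. Leaving out any other single array gave 4 to 7 calls.

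Of 30 other hydrolases and cofactors measured, 2 were lower at 2-g than at 1-g, where 1.10% of all genes were called lower. With the block 6 were lower and 1 higher, against 8.32% of all genes called. Dpp7, a dipeptidyl peptidase, had 11.24, 11.11 and 11.08 at μ-g, 11.25, 11.33 and 11.15 at 1-g, 10.66, 10.75 and 10.62 at 2-g and 10.83, 10.82 and 10.93 in control. As for Gusb, the 2-g and control arrays lay below those at μ-g and 1-g, and the log2 difference of 2-g v.s. 1-g was −0.57 (SE 0.06, adjusted p = 3.59e-04 by limma). Idua and Manba, a glycosaminoglycan-degrading iduronidase and the beta-mannosidase, were higher at μ-g than in control by 0.33 and 0.38 (adjusted p = 0.0407 and 0.0246 by limma), and at 1-g by 0.46 and 0.38 (0.0197 and 0.0335). Idua was called for μ-g v.s. control only without μ-g replicate 2 or 2-g replicate 1 among the 12 fits that left out 1 array (up to 0.19), and Manba not without μ-g replicate 1, μ-g replicate 3, control replicate 1 or control replicate 3 (up to 0.122). For 1-g v.s. control Idua was called in 7 of those fits and Manba in 4. Of 24 other membrane protein genes measured, 4 were lower at 2-g than at 1-g, where 1.10% of all genes were called lower. They were Ostm1 and Clcn7, which form a chloride and proton exchanger, Cln3, and the proton-coupled amino acid transporter Slc36a1. Their log2 differences were −0.32, −0.35, −0.31 and −0.48, with adjusted p of 0.018 to 0.0456 by limma. The same 4 genes were higher at μ-g than at 2-g, as was the channel gene Tpcn1 (0.33, adjusted p = 0.0442 by limma, called in 3 of the 12 fits that left out 1 array). These were 5 of the 24, where 1.48% of all genes were called higher. Over the fits that left out 1 array, Slc36a1 was called for 2-g v.s. 1-g in 9 of 12 (not without 1-g replicate 1, 1-g replicate 3 or 2-g replicate 2) and Clcn7 in 3, with an adjusted p of up to 0.166. Cln3 was called in 8 of these fits and Ostm1 in 6.

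In the sorting of enzymes, Gnptab, which encodes the enzyme that starts the mannose 6-phosphate tag, averaged 10.10 ± 0.07 at μ-g, 10.05 ± 0.04 at 1-g, 9.87 ± 0.05 at 2-g and 9.69 ± 0.04 in control (SD, n = 3 each). All arrays from the magnet lay above the control arrays, with the log2 difference from control at 0.41 for μ-g (SE 0.05, adjusted p = 0.00856 by limma) and 0.36 for 1-g (SE 0.05, adjusted p = 0.0197 by limma). The first was not called without μ-g replicate 3 (adjusted p 0.0503), and the second was not called without control replicate 1, control replicate 2 or any array at 1-g (up to 0.0936). Of the 21 measured genes of the TFEB family and its upstream control, Tfec, a relative of Tfeb, was higher at μ-g than at 2-g by 0.71 (SE 0.15, adjusted p = 0.0237 by limma) and lower at 2-g than at 1-g by −0.66 (SE 0.15, adjusted p = 0.0368 by limma). Without μ-g replicate 1, μ-g replicate 3, 2-g replicate 2 or 2-g replicate 3 the first Tfec call was lost (up to 0.117), and the second was kept in 5 of 12 fits (up to 0.137). Mitf, another relative, was higher at 2-g than in control by 0.33 (SE 0.06, adjusted p = 0.0128 by limma) and it was not called without 2-g replicate 3 or control replicate 3 (up to 0.0617). Rragc, a nutrient-sensing GTPase that binds TFEB, was higher at μ-g than at 2-g by 0.32 (adjusted p = 0.0141 by limma), and was not called without the same arrays as Tfec (up to 0.071). None of the 8 measured inhibitors of cathepsins was called in any comparison by limma, and at most 1 had an unadjusted p under 0.05 in each.

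**Figure D4:**
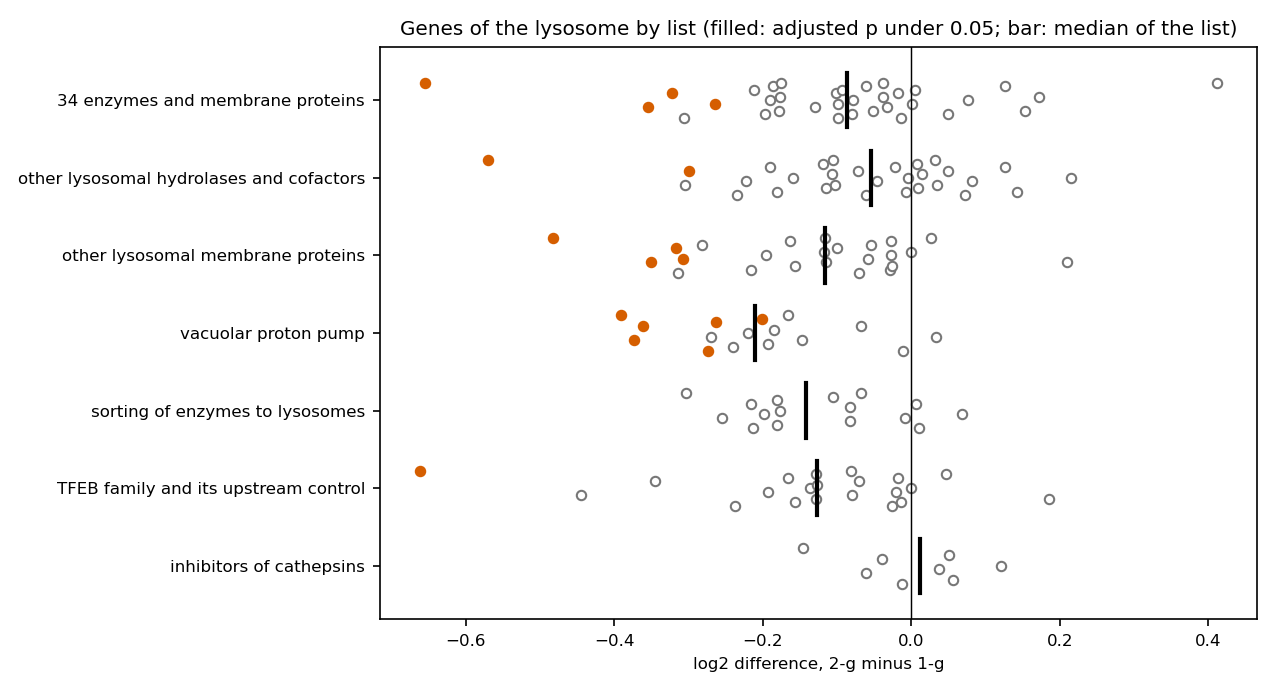
log2 difference of 2-g minus 1-g (horizontal axis) for each measured gene of the 34 and of the 6 other lysosomal lists (rows), filled orange where the adjusted p was under 0.05, with a black bar at each list's median. The medians ran from −0.21 for the proton pump to 0.01 for the inhibitors of cathepsins, and every filled point lay below 0.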

How the data were processed

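Total RNA of 12 samples of MLO-Y4 cells was hybridized to Affymetrix Mouse Gene 1.0 ST arrays. The authors normalized the scans with RMA, and the deposited log2 values, 1 per transcript cluster and array, were used as they are. RMA fits all arrays jointly and compresses small signals, so differences of dim clusters are understated. Intensities before normalization were not used here, so the precision is limited by the 3 arrays per group, with no counting depth.

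Of 28856 transcript clusters, 21789 carried 1 gene symbol in the platform annotation, 1621 several and 5446 none. Each of 19938 genes was represented by its brightest single-symbol cluster, on average (999 genes had several; none of the 34 did). Group means were fitted to the 12 arrays jointly, using limma 3.58.1 under R 4.3.3 (functions lmFit and eBayes; 8 residual degrees of freedom), with 6 comparisons and the F test, and p-values were adjusted by Benjamini-Hochberg over all 19938 genes. No test of a whole list was run.

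The members and all lists were chosen with earlier results of these data known. Array values and statistics were given for every member called in any test and, up to 10, for those with the next smallest F test p; Ctsh was added after its values were seen. From each other list up to 4 genes with the smallest adjusted p were named, with Tpcn1 and Acp5 added after their values were seen.

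Pairing was judged from the correlation, over genes, of deviations from group means: arrays sharing a replicate number had a mean of 0.34 over 18 pairs and other arrays −0.17 over 36, and 17 of the 18 pairs were over 0.1. The lowest, 0.0179, joined μ-g and control. No other batch was given by the labels. Alternatives were the replicate block, fits of the compared arrays only, a level filter, other scalings, another variance prior, means of clusters, a fold rule and leaving out each array.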

Additional observations from a re-analysis of the deposited data

How the results depend on the processing

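For the members whose array values are given, 37 differences were recomputed under each alternative and kept their sign. They were those with an unadjusted p under 0.05 by limma, and the differences of Ctsh that involve 2-g. The block, the level filter, other variance priors, means of clusters and fits of the compared arrays leave these differences as they are. Only other scalings and leaving out an array could change a sign. Other differences of named genes, many of them near 0 (those of Tfeb, for example), were not among the 37. The block removed no call of the 34 genes in the 6 comparisons. With the replicate block the number of the 34 genes called was 6 for 2-g v.s. control, 3 for 1-g v.s. control, 11 for 2-g v.s. 1-g and 12 for μ-g v.s. 2-g; in μ-g v.s. control, where the numbers pair the arrays less clearly, it was 6, and in the F test 14, while 1183 genes of all were called in μ-g v.s. control and 2651 in the F test. With only genes above the median level tested, or after quantile normalization, 2 genes were called in 2-g v.s. control. After quantile normalization 766 of all genes were called there. A fold above 1.5 with an unadjusted p under 0.05, the rule of the methods, gave 1 in 2-g v.s. 1-g (Cd68) and 0 in μ-g v.s. 2-g. In the F test, an unadjusted p under 0.05 gave 15. With only the 6 arrays compared, 2 were called in 2-g v.s. 1-g. For the level filter, the fold rule, the unadjusted F test and the 6 arrays, the share of all genes is not given. Those counts therefore do not show how the 34 genes differ from other genes. Leaving out 1 array gave 0 to 1 calls in μ-g v.s. control, 0 to 2 in 2-g v.s. control, 0 to 1 in 1-g v.s. control, 1 to 7 in μ-g v.s. 2-g, 1 to 4 in 2-g v.s. 1-g, 0 in μ-g v.s. 1-g and 0 to 8 in the F test. Over all genes, in the same order, these fits called 2 to 500, 180 to 730, 0 to 84, 227 to 779, 200 to 525, 0 and 231 to 943. The cause of these changes was not tested. Quantile normalization moved the direction of calls over all genes, to 172 lower of 499 in 2-g v.s. 1-g (220 of 489 as deposited), 217 higher of 599 in μ-g v.s. 2-g (296 of 615), 50 of 152 in μ-g v.s. control (102 of 188) and 24 of 73 in 1-g v.s. control (37 of 71), and centring each array on its median gave 54 of 141 in μ-g v.s. control. A prior from all transcript clusters, an alternative chosen after seeing the data, and means of clusters left every count of the 34 as it was. Since none of the 34 had several clusters, means of clusters did not alter their values and could act only through the prior and the adjustment.

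The F test has no fit of 6 arrays. With 3 arrays a group, the standard errors of most members were near 0.07 log2 units, the smallest difference called among them was 0.20, and the levels of Ctss, Ctse and Ctsw were below the median gene.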
